A study of Mus musculus with 8 samples.

Results

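The annexins are a family of calcium-dependent phospholipid-binding proteins, and 8 of their genes, *Anxa1*, *Anxa2*, *Anxa3*, *Anxa4*, *Anxa5*, *Anxa6*, *Anxa7*, and *Anxa11*, were followed by symbol among the 25239 gene symbols measured in the mouse corpus callosum. The corpus callosum is the large bundle of myelinated axons between the cerebral hemispheres. The family was chosen by the values of *Anxa11*, which were higher after bilateral common carotid artery stenosis (BCAS) under both genotype labels, so every value of BCAS against sham is a description here and has no test. BCAS lowers cerebral blood flow with a microcoil around each common carotid artery, and the sham operation omits the coils. C57BL/6 mice labelled WT or TRPA1-KO (Trpa1 -/-, a constitutive knockout) gave 4 libraries each. Each label had a sham library of day 14 and BCAS libraries of days 7, 10, and 14, with 1 library per day. By the study's methods, the mice were adult, the knockout line was backcrossed to C57BL/6J, and a sample was an extract of 1 mouse. The WT mice are given there as male, and the sex of the TRPA1-KO mice is not stated. No group had a second library of the same day, so the 3 BCAS days served as the replicates of a label. The spread between them holds day and animal together.

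Annexins share a conserved core that binds acidic phospholipids when calcium rises, and they differ in the tail before it. They are known for membrane repair, vesicle traffic, and the organization of membranes with the cytoskeleton. *Anxa1* encodes a protein that dampens inflammation through formyl peptide receptors, *Anxa2* encodes the partner of *S100a10* at the plasma membrane, and *Anxa5* encodes the phosphatidylserine binder used to stain dying cells. *Anxa6* encodes a member whose core is duplicated. *Anxa7* and *Anxa11* encode the long-tailed members, and ANXA11 is known to tether RNA granules to lysosomes that travel along axons.

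The libraries held between 7896071 and 12952093 reads on genes, and 3 reads corresponded to 0.235 to 0.378 CPM (read counts scaled to library size). *Trpa1*, the targeted gene, had 0.0782 CPM or less in the 4 libraries labelled WT and 0.320 to 1.22 CPM in the 4 labelled TRPA1-KO. This goes against the labels, and reads from a part of the gene that the knockout may leave cannot be told apart in a table of genes. Every direction between genotypes below is a direction between labels. Oligodendrocyte markers were abundant, with a summed level of 8259.6 to 11387 CPM over 5 genes. Neuron markers were present as well (5053 to 6712 CPM over 5 genes), as were striatal neuron markers (286 to 679.6 CPM over 3 genes). In such bulk tissue, fewer cells of a type and less RNA per cell cannot be told apart. Between the sham and the BCAS libraries, 3 of the 5 oligodendrocyte markers (*Mbp*, *Mog*, *Mobp*) and 2 of the 3 striatal markers (*Drd1*, *Ppp1r1b*) were lower in every BCAS library than in both sham libraries. So were 1 of the 2 oligodendrocyte precursor markers (*Pdgfra*) and 1 of the 4 mural markers (*Rgs5*). Of all genes tested, 3.59% were. The BCAS library of day 7 labelled WT stood apart, with a summed level of the 5 microglia markers of 429 CPM, against 177 to 298 CPM in the other 7 libraries.

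Promoters are shown for *Anxa11*, which separated BCAS from sham, and for *Anxa1*, *Anxa2*, and *Anxa4*, whose differences between labels were the largest on the CPM ratio. RefSeq (GRCm38.p6) gave promoters for 6 of the 8 members, and *Anxa3* and *Anxa6* had no entry. Each runs from 250 bases before to 50 bases after the annotated start, 5′ to 3′ on the strand of the gene. Capitals mark matches on either strand to a STAT motif (TTCNNNGAA), an AP-1 motif (TGANTCA), a GC box (GGGCGG), or a TATA box (TATAAA).
Anxa11, chr14:25841905-25842204, plus strand: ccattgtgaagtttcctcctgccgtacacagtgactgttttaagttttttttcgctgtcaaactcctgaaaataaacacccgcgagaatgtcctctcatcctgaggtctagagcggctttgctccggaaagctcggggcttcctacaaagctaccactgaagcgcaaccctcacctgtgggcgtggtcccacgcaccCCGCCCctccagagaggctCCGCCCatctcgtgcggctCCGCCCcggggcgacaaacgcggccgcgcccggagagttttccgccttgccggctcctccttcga
Anxa1, chr19:20390622-20390921, minus strand: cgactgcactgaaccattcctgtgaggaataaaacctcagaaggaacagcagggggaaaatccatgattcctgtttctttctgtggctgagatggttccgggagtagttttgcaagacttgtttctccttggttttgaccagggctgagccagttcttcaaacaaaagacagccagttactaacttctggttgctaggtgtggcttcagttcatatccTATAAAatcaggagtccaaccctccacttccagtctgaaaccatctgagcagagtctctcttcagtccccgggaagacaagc
Anxa2, chr9:69453433-69453732, plus strand: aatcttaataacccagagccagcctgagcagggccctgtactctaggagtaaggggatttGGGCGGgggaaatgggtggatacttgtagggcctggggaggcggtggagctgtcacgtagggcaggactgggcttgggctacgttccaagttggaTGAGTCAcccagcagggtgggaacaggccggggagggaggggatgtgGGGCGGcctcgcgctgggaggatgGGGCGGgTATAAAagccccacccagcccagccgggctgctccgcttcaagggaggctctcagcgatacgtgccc
Anxa4, first of 2 starts, chr6:86793535-86793834, minus strand: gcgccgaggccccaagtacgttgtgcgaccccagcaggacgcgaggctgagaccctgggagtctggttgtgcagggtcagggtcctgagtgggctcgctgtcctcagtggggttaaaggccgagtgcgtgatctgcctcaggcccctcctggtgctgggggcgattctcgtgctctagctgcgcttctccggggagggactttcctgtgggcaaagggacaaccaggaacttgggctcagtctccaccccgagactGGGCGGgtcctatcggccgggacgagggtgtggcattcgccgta
The *Anxa11* promoter held 3 GC boxes, which begin 53, 34, and 15 bases before the start, and no TATA box. It had 25 CpG dinucleotides, the most of the member promoters. The *Anxa2* promoter held 3 GC boxes, 1 AP-1 motif that begins 95 bases before the start, and 1 TATA box that follows a GC box with 1 base between them. The *Anxa1* promoter held 1 TATA box, beginning 32 bases before the start, and 3 CpG dinucleotides. The *Anxa4* promoter held 1 GC box just after the start. None of the motif matches overlapped, and no member promoter matched the STAT motif in this window. Among all 32851 promoters of the same length, 35.7% held a GC box, 13.6% a TATA box, 7.81% an AP-1 motif, and 8.30% a STAT motif.

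Levels between the genes were compared as CPM per kilobase of exon (GENCODE M21, mean ± SD over the 8 libraries). *Anxa6* (33.4 ± 1.79) and *Anxa5* (28.7 ± 4.92) were the highest, and their ranges overlapped. *Anxa7* (14.3 ± 0.467) followed and lay above every library of *Anxa11* (10.2 ± 1.71), whose lowest library was just under the highest of *Anxa3*. *Anxa3* (3.26 ± 1.66), *Anxa2* (2.26 ± 2.36), and *Anxa4* (1.53 ± 0.695) formed a lower group whose ranges overlapped each other. *Anxa1* was the lowest member at 0.447 ± 0.404, on 5 to 44 reads in a library, and its range overlapped that of *Anxa4*. Of the annexin symbols that were not members, *Anxa9* had 0.988 ± 0.350 CPM per kilobase, and *Anxa8*, *Anxa10*, and *Anxa13* had at most 5 reads in any library.

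**Figure D1:**
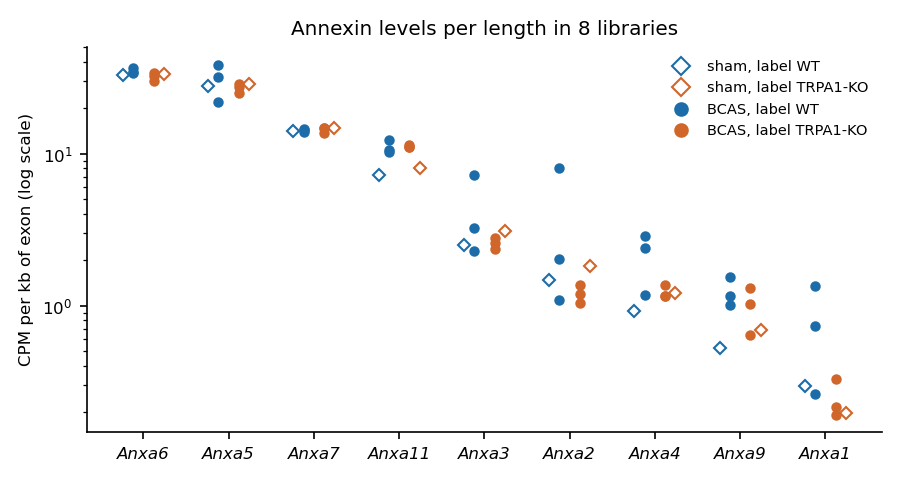
Levels of the 8 annexin genes and *Anxa9* in each of the 8 libraries, as CPM per kilobase of exon on a log axis, with open diamonds for sham and filled circles for BCAS. *Anxa6* and *Anxa5* sit at the top (means of 33.4 and 28.7), and *Anxa1* at the bottom (0.447).

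*Anxa11* spans bases 25842156 to 25886804 of chromosome 14 (GRCm38, plus strand), and the antisense transcript *Anxa11os* overlaps it. Its sham levels were 29.8 CPM (WT label) and 33.1 CPM (TRPA1-KO label). After BCAS, the WT label had 50.5, 42.3, and 43.7 CPM on days 7, 10, and 14. The TRPA1-KO label had 46.8, 45.4, and 45.8 CPM on the same days. Each of the 6 BCAS libraries thus lay above both sham libraries, and the BCAS libraries of the labels overlapped. Each of these values rested on at least 336 reads. The strand setting of the counting is not given in the sources used here, so reads of *Anxa11os* cannot be told apart from those of *Anxa11*.

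Relative to the mean of both sham libraries, *Anxa11* was 1.45-fold under the WT label and 1.46-fold under the TRPA1-KO label. On the log2(CPM + 1) scale, these differences were 0.52 (standard error 0.099) and 0.54 (standard error 0.099). They share both sham libraries and chose the family, so they carry no p. On day 14, the only day with a sham library, *Anxa11* was 1.47-fold of the sham library of the same label under the WT label and 1.38-fold under the TRPA1-KO label. Among the 18123 genes tested, 2.6% were higher in all 6 BCAS libraries than in both sham libraries, and *Anxa11* was the 1 member among them. No member was lower in all 6 (3.59% of all genes). Leaving out the day 7 library labelled WT could not change this for *Anxa11*. No other member joined it above sham in all 5 libraries left, where 3.8% of all genes were. The summed oligodendrocyte markers were 10170.0 and 11387 CPM in the sham libraries and 8259.6 to 9419 CPM after BCAS. The summed striatal neuron markers were 504 and 679.6 CPM in the sham libraries and 286 to 477 CPM after BCAS. Both thus separated sham from BCAS in the opposite direction to *Anxa11*. Among the fibroblast and meninges markers, *Col1a2*, a collagen gene, was higher in all 6 BCAS libraries (7.46 to 11.5 CPM) than in the sham libraries (6.81 and 5.56 CPM). The other markers of that list, *Col1a1*, *Dcn*, and *Lum*, overlapped between sham and BCAS. The part of these cell types in the difference of *Anxa11* was not tested.

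The other 7 members did not separate sham from BCAS as *Anxa11* did. Under the WT label, 2 members lay above both sham libraries on all 3 days, *Anxa6* and *Anxa11*, where 8.89% of all genes tested did so, and 0 members lay below them (11% of all genes). *Anxa6* had 96.8 and 98.1 CPM in the sham libraries and 106, 101, and 99.6 CPM on days 7, 10, and 14 under the WT label. Its ratio to the sham mean was 1.05, against 1.45 for *Anxa11*. Under the TRPA1-KO label, *Anxa11* was the 1 member above both sham libraries on all 3 days (8.41% of all genes) and *Anxa2* the 1 member below them (10.2% of all genes). The median log2 difference from sham over the 8 members was 0.47 under the WT label and -0.029 under the TRPA1-KO label, beside medians over all genes of -0.0012 and -0.0021. The medians over the members include *Anxa11*, whose values against sham chose the family, so they are a description. The median under the WT label rested on the day 7 library and was 0.0048 without it.

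**Figure D2:**
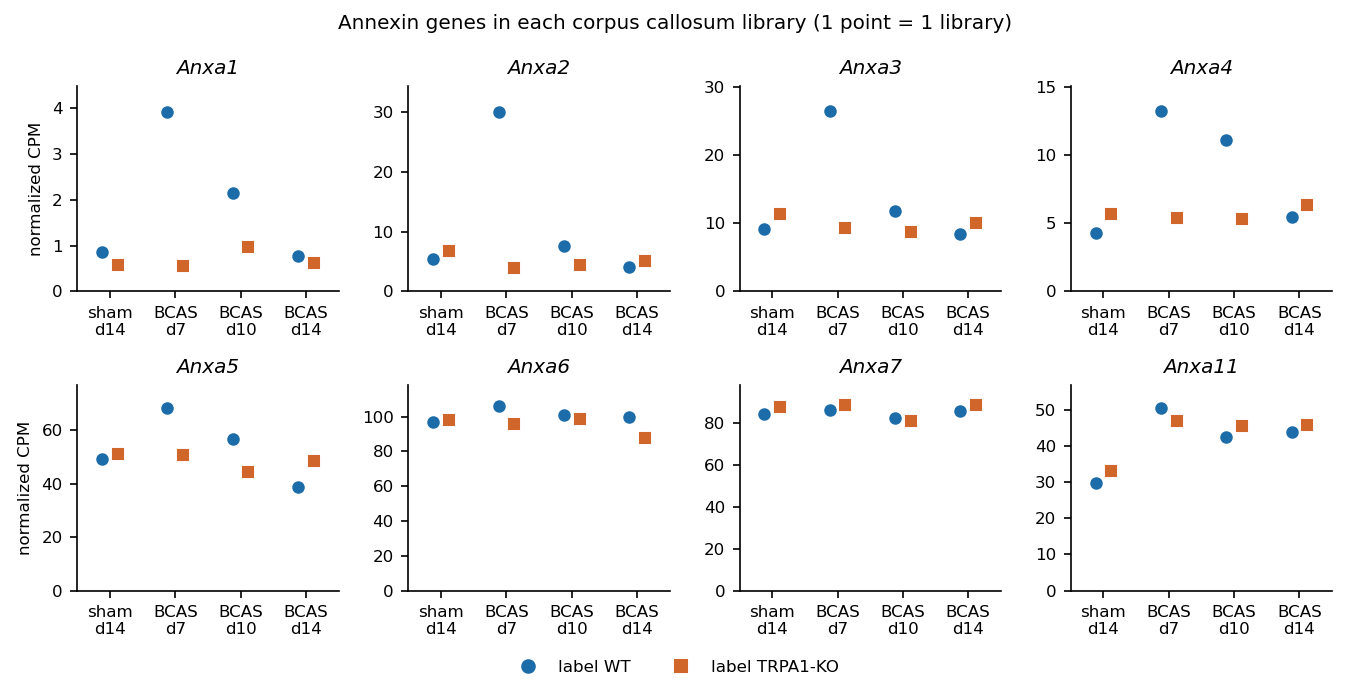
Normalized CPM of the 8 annexin genes in each library, with 1 point for each library (circles labelled WT, squares labelled TRPA1-KO), over the sham operation on day 14 and BCAS on days 7, 10, and 14. *Anxa11* is at 29.8 and 33.1 CPM after sham and at 42.3 to 50.5 CPM after BCAS, while *Anxa2* reaches 30.0 CPM only on day 7 under the WT label.

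**Figure D3:**
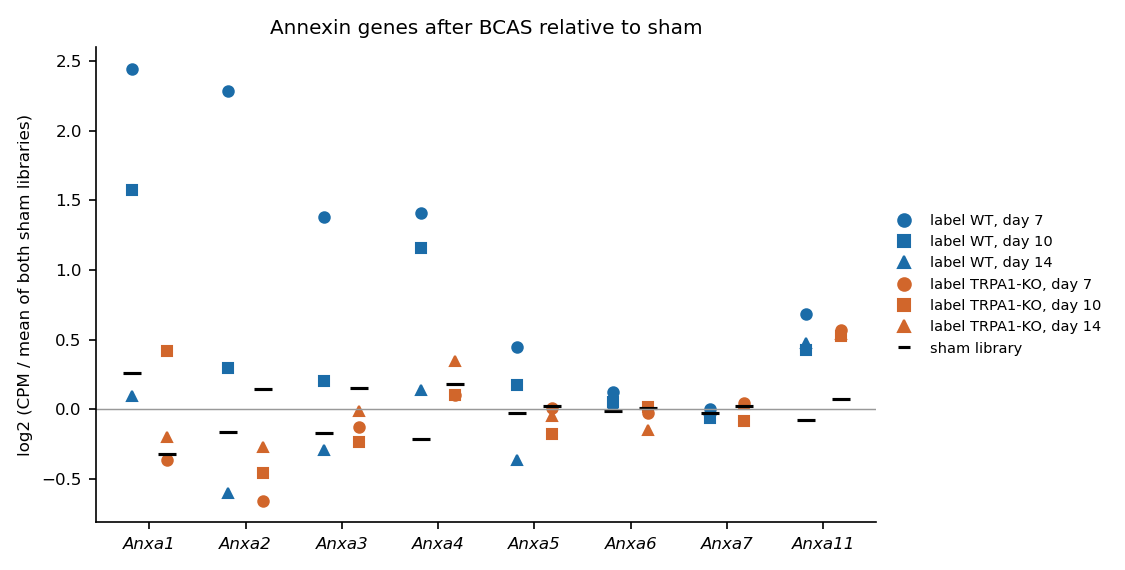
Log2 ratio of each BCAS library to the mean CPM of both sham libraries for the 8 annexin genes, with color for the label, marker shape for the day, and black dashes for the sham libraries. *Anxa11* is the 1 gene with all 6 BCAS points above both dashes, and *Anxa1*, *Anxa2*, *Anxa3*, and *Anxa4* are farthest from 0 on day 7 under the WT label.

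*Anxa2* lies on chromosome 9 from 69453620 to 69491795 on the plus strand and overlaps the antisense transcript *Gm16144*. It had 5.48 and 6.81 CPM in the sham libraries labelled WT and TRPA1-KO. Under the WT label, it had 30.0, 7.56, and 4.06 CPM on days 7, 10, and 14 after BCAS. Under the TRPA1-KO label, it had 3.90, 4.48, and 5.10 CPM. The day 7 library labelled WT was thus 3.96-fold of the next highest library and 7.69-fold of the day 7 library labelled TRPA1-KO. Its 95% Clopper-Pearson interval, 26.9 to 33.3 CPM on 337 reads, did not overlap that of any other library.

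*Anxa1*, on chromosome 19 from 20373428 to 20390944, had 0.861 and 0.575 CPM in the sham libraries labelled WT and TRPA1-KO. Under the WT label, it had 3.91, 2.14, and 0.768 CPM on days 7, 10, and 14, from 44, 17, and 7 reads. Under the TRPA1-KO label, it had 0.557, 0.961, and 0.624 CPM, from 5, 9, and 6 reads. Its level was thus highest on days 7 and 10 under the WT label, on few reads, and the intervals of day 10 (1.25 to 3.43 CPM under the WT label and 0.439 to 1.82 CPM under the TRPA1-KO label) overlapped.

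*Anxa3*, on chromosome 5 from 96793339 to 96845966, had 9.08 and 11.3 CPM in the sham libraries. Under the WT label, it had 26.5, 11.7, and 8.34 CPM on days 7, 10, and 14, and under the TRPA1-KO label 9.35, 8.65, and 10.1 CPM. *Anxa4*, which encodes a membrane-binding member first known from epithelia, lies on chromosome 6 from 86736840 to 86793584 and had 4.30 and 5.66 CPM in the sham libraries. It had 13.3, 11.1, and 5.49 CPM under the WT label and 5.34, 5.34, and 6.35 CPM under the TRPA1-KO label. *Anxa3* was thus high in 1 library and *Anxa4* in 2, both labelled WT.

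*Anxa5*, on chromosome 3 from 36448923 to 36475894, had 49.4 and 51.1 CPM in the sham libraries. Under the WT label, it had 68.5, 56.7, and 39.0 CPM on days 7, 10, and 14, so that its highest and its lowest library had the same label. Under the TRPA1-KO label, it had 50.7, 44.4, and 48.7 CPM. *Anxa7*, which encodes a binding partner of sorcin and lies on chromosome 14 from 20455260 to 20480133, varied least, between 81.3 and 88.9 CPM over the 8 libraries. Its SD of log2(CPM + 1) was 0.047, against a median of 0.12 over the 10744 genes averaging 10 CPM or more. *Anxa6*, on chromosome 11 from 54979108 to 55033445, was next with an SD of 0.078, and *Anxa2* had the largest SD at 0.87. Within the 6 BCAS libraries, the SD of *Anxa11* was 0.086 and that of *Anxa2* was 1.02.

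For 7 of the 8 members, all but *Anxa7*, the highest library of the 8 was that of day 7 labelled WT, as it was for 21.9% of all genes tested. The same library was the highest for 5 of 5 microglia markers, 3 of 5 astrocyte markers, 3 of 4 infiltrating myeloid markers, 4 of 4 markers of fibroblasts and meninges, 2 of 2 choroid plexus markers, and 2 of 4 endothelial markers. The summed astrocyte markers were 2372 CPM there, against 858 to 1946 CPM in the other libraries, and the myeloid markers 64.9 CPM against 2.74 to 14.1 CPM. The choroid plexus markers summed to 5.42 CPM there against 0.312 to 2.67 CPM, and the endothelial markers to 166 CPM against 132 to 147 CPM. The fibroblast and meninges markers summed to 31.8 CPM there against 11.5 to 25.3 CPM. No marker of these 6 lists was at 0 throughout. The part of these cell types in the annexin values was not tested. With that library left out, the highest value of 6 members was in the day 10 library labelled WT, as it was for 18.1% of all genes tested. That library also had the next highest sums of the microglia and astrocyte markers.

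**Figure D4:**
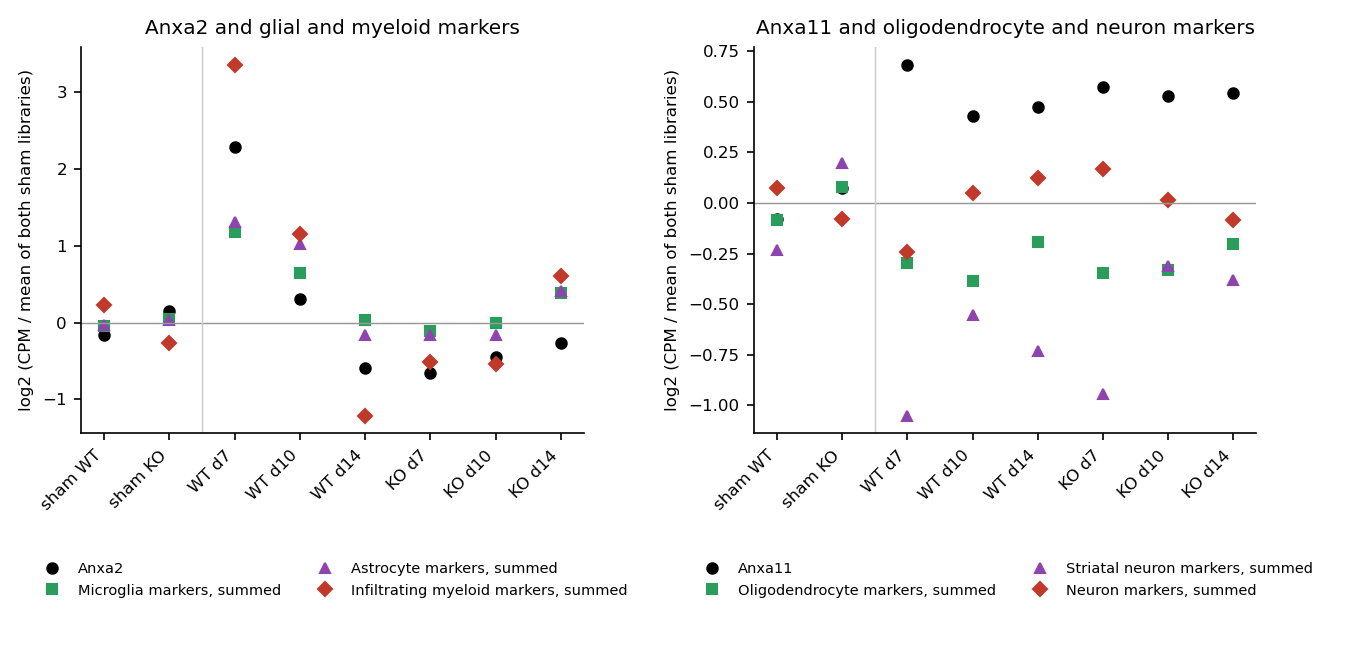
Log2 ratio to the mean of both sham libraries, for each of the 8 libraries, of *Anxa2* beside summed microglia, astrocyte, and infiltrating myeloid markers (left) and of *Anxa11* beside summed oligodendrocyte, striatal neuron, and neuron markers (right). WT and KO on the axis are the genotype labels and d the day after operation. *Anxa2* is highest in the library in which the 3 glial and myeloid sums are highest, and *Anxa11* lies above both sham libraries after BCAS where the oligodendrocyte and striatal sums lie below them.

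The members fell into patterns that were described by Pearson correlation of log2(CPM + 1) over the 8 libraries, with no test because the libraries share few conditions. Over the 10 pairs of *Anxa1* to *Anxa5*, *r* lay between 0.77 and 0.99, and between 0.40 and 0.88 without the day 7 library labelled WT. This set was grouped with the same values known, so its *r* is no support for the grouping. With the genes of this set, *Anxa6* had *r* between 0.43 (*Anxa5*) and 0.74 (*Anxa1*), and between -0.054 and 0.52 without that library. *Anxa7* had *r* between -0.33 (*Anxa1*) and 0.11 (*Anxa3*) with them over the 8 libraries. For *Anxa11* with each of the other 7 members, *r* lay between 0.053 and 0.52, and between -0.49 and 0.34 without that library. Over all genes averaging 10 CPM or more, those most like *Anxa11* were *Smim20* (*r* = 0.98), *Msrb3* (0.98), *Gm2274* and *Gm2260* (0.97 for each, with identical values), and *Pcgf2* (0.96). *Msrb3*, which encodes a methionine sulfoxide reductase, had 7.67 and 8.54 CPM in the sham libraries and 10.5 to 11.7 CPM after BCAS. The genes most like *Anxa2* were *Anxa3* (0.99), *Ftl1* (0.99), *Serpine2* (0.99), *Ftx* (0.98), and *Apod* (0.98). *Ftl1*, which encodes the ferritin light chain, had 509 CPM on day 7 under the WT label and 197 to 242 CPM in the other libraries.

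Within the reads of the family, *Anxa11* took a larger share after BCAS, a description that rests on the same values that chose the family. It made up 10.6% and 11.2% of the summed CPM of the 8 members in the sham libraries and 13.1% to 15.7% in the BCAS libraries. *Anxa2* made up 1.29% to 2.40% in 7 libraries and 7.78% on day 7 under the WT label. The summed level was 385 CPM in that library and 280 to 315 CPM in the others.

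After BCAS, 3 libraries of each label were compared, and 6 members were higher under the WT label and 2 were lower, where 50.3% of all genes were higher. *Anxa11* was chosen for a rise under both labels, so its values between them are a description. *Anxa1* was 3.19-fold by the ratio of mean CPM (2.27 ± 1.58 against 0.714 ± 0.217 CPM, SD, 3 libraries each), and its log2 difference was 0.82 (standard error 0.33). *Anxa4* was 1.75-fold (9.94 ± 4.01 against 5.68 ± 0.581 CPM), with a log2 difference of 0.64 (standard error 0.27). These 2 members had an unadjusted limma p under 0.05, as did 4.2% of all genes tested. None of the 8 passed the adjustment (limma adjusted p = 0.98 for *Anxa1* and *Anxa4*), where 0.0166% of all genes did. The exact permutation test, two-sided, gave p = 0.20 for each, where 3 against 3 allow 0.10 at the lowest. Neither gene had a p under 0.05 when the library of day 7 or of day 10 labelled WT, or of day 7 or of day 14 labelled TRPA1-KO, was left out, and 5 members had one without day 14 labelled WT, where the count over all genes went from 761 to 1846.

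*Anxa2* was 3.09-fold under the WT label by the same ratio (13.9 ± 14.1 against 4.49 ± 0.601 CPM), a difference within the spread between the days (exact permutation p = 0.30, limma adjusted p = 0.98). *Anxa6* was the 1 member whose groups did not overlap (102 ± 3.57 against 94.0 ± 5.63 CPM), where 9.21% of all genes did not (exact permutation p = 0.10, limma adjusted p = 0.98). *Anxa11* had 45.5 ± 4.38 CPM under the WT label and 46.0 ± 0.707 CPM under the TRPA1-KO label. Its log2 difference was -0.018, and the groups overlapped. For *Anxa7*, the 95% interval of the log2 difference was -0.18 to 0.14. The median over the 8 members was 0.34, beside 0.0010 over all genes, and it was 0.084 without day 7 and 0.61 without day 14 labelled WT.

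With both sham libraries added, 4 libraries of each label were compared with the operation as a covariate. *Anxa1* was the 1 member with an unadjusted limma p under 0.05 (3.87% of all genes), with a log2 difference of 0.68 (standard error 0.28). None of the 8 had an adjusted p under 0.05 (0.0552% of all genes), and the labels overlapped for every member (2.46% of all genes did not overlap). The exact permutation test of *Anxa1* gave p = 0.086, where 4 against 4 allow 0.029. The count of members with an unadjusted p under 0.05 was 0 when the library of day 7 or day 10 labelled WT, or of day 7 or day 14 labelled TRPA1-KO, was left out, 4 without day 14 labelled WT, and 2 without either sham library. Over all genes, 701 had such a p, 1305 without day 14 labelled WT, and 755 and 756 without a sham library.

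The change over the days was tested as the difference between day 7 and day 14 on a line through days 7, 10, and 14 of the 6 BCAS libraries. Over both labels, the log2 change of *Anxa5* was -0.42 (standard error 0.16) and was the 1 member with an unadjusted limma p under 0.05 (4.93% of all genes). It did not pass the adjustment (limma adjusted p = 0.94), nor did any other member or any gene (0% of all genes). The unadjusted count was 0 without any 1 of the 3 libraries labelled WT, 4 without day 7 and 5 without day 14 labelled TRPA1-KO, where the counts over all genes were 1136 and 2040 in place of 893. *Anxa11* changed by -0.11, which is a description because its BCAS values chose the family.

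The change over the days differed between the labels for *Anxa2*, which went from 30.0 to 4.06 CPM between days 7 and 14 under the WT label and from 3.90 to 5.10 CPM under the TRPA1-KO label. The difference between the labels (WT minus TRPA1-KO) was -2.86 on the log2 scale (standard error 0.54, limma adjusted p = 0.023). Genes with an adjusted p under 0.05 made up 2.09% of all genes tested, and *Anxa2* was the 1 member. *Anxa1* (-1.51), *Anxa3* (-1.63), *Anxa4* (-1.38), and *Anxa5* (-0.76) had an unadjusted limma p under 0.05, as did 15.7% of all genes, and adjusted ones of 0.068 to 0.15. The differences of *Anxa6* (0.039), *Anxa7* (-0.0087), and *Anxa11* (-0.16) were smaller than their standard errors (0.17, 0.18, and 0.21). For *Anxa11* this is a description, because its BCAS values chose the family.

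This test has 1 library for each label and day, so a mouse and its day cannot be told apart. Its p is set against the departure of 3 libraries per label from a straight line, not against a spread between mice of the same day. Without the day 7 library labelled WT, the difference of *Anxa2* was -1.64 (limma adjusted p = 0.38). With no filter on low genes, the call was also lost (limma adjusted p = 0.33). The difference was -2.81 without day 7 (limma adjusted p = 0.43), -2.86 without day 10 (limma adjusted p = 0.085), and -2.93 without day 14 (limma adjusted p = 0.99) labelled TRPA1-KO. It passed without day 10 (limma adjusted p = 0.024) and without day 14 (limma adjusted p = 0.045, difference -4.64) labelled WT.

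**Figure D5:**
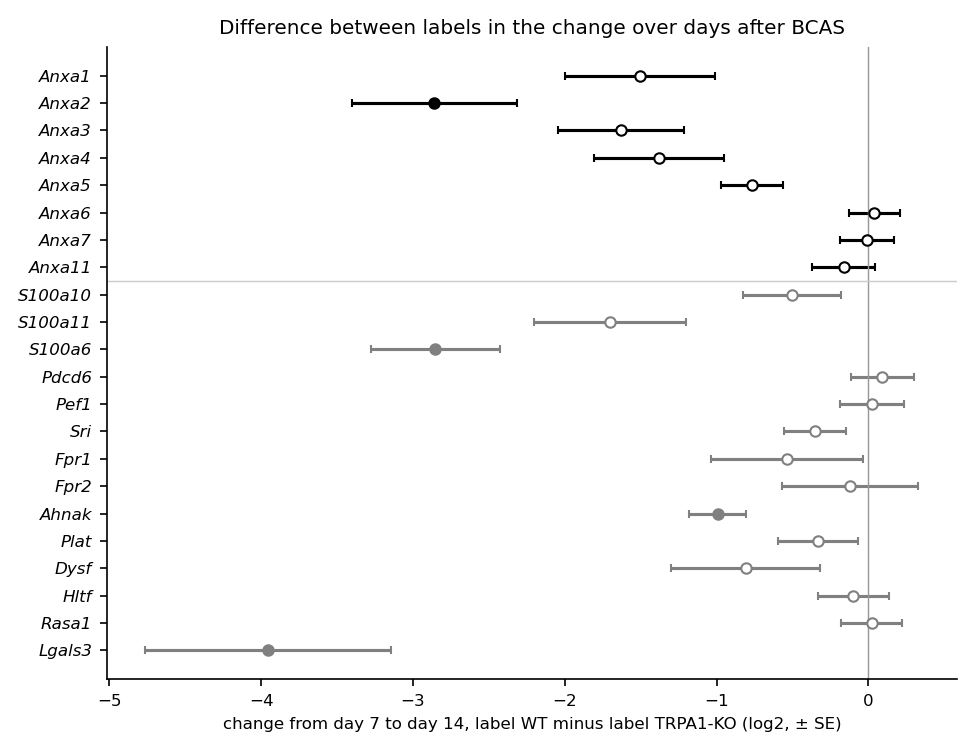
Difference between the labels (WT minus TRPA1-KO) in the log2 change from day 7 to day 14 after BCAS, with standard errors, for the 8 annexin genes (black) and 14 partner genes (gray), where filled points have a limma adjusted p under 0.05. *Anxa2* at -2.86 is the 1 filled annexin, and *Anxa6*, *Anxa7*, and *Anxa11* lie near 0.

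Of 14 genes whose products bind annexins or act with them, all 14 were tested. Between the labels after BCAS, 0 had an unadjusted limma p under 0.05 (4.2% of all genes) and 0 an adjusted one (0.0166% of all genes). The median log2 difference was 0.14. With edgeR and with DESeq2, 2 of them had an unadjusted p under 0.05, beside 948 and 595 of all genes. For the change over the days, *S100a11* (-1.67 on the log2 scale) and *Lgals3* (-2.1) had an unadjusted limma p under 0.05 (4.93% of all genes). Neither passed the adjustment (limma adjusted p = 0.94 for each), nor did any gene (0% of all genes). For the difference between the labels in that change, 3 of 14 had an adjusted p under 0.05 (2.09% of all genes), each with a negative difference (WT minus TRPA1-KO). They were *S100a6* (-2.85, limma adjusted p = 0.0061), which encodes a calcium-binding partner of ANXA11 and ANXA2, *Ahnak* (-0.99, adjusted p = 0.022), a scaffold of the *Anxa2*-*S100a10* complex, and *Lgals3* (-3.95, adjusted p = 0.029), which encodes a galectin. Between days 7 and 14, *Ahnak* went from 68.7 to 56.2 CPM under the WT label and from 41.4 to 68.0 CPM under the TRPA1-KO label. *Lgals3* went from 19.5 to 0.110 CPM under the WT label and had at most 4 reads in each TRPA1-KO BCAS library. With no filter, none of the 3 calls held (limma adjusted p of 0.32 to 0.36). With 1 library left out, *Lgals3* ranged from -7.30 (without day 14 labelled WT) to -1.67 (without day 7 labelled WT, limma adjusted p = 0.36). *S100a6* was -1.84 without day 14 labelled WT (limma adjusted p = 0.22). All 3 calls were lost without day 7 labelled WT and without day 7 or day 14 labelled TRPA1-KO, those of *S100a6* and *Ahnak* also without day 14 labelled WT, and those of *Ahnak* and *Lgals3* also without day 10 labelled TRPA1-KO. With DESeq2, the call of *Ahnak* was lost (adjusted p = 0.10).

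*S100a10*, which encodes the partner of ANXA2 in its tetramer, had 13.8 and 11.9 CPM in the sham libraries. It had 18.1 CPM on day 7 under the WT label and 11.7 to 16.6 CPM in the other BCAS libraries, a range far narrower than that of *Anxa2*. *S100a6* had 23.8, 15.8, and 4.06 CPM on days 7, 10, and 14 under the WT label and 6.12, 7.79, and 9.26 CPM under the TRPA1-KO label. *Pdcd6*, which encodes a calcium sensor that binds ANXA7 and ANXA11, stayed between 37.3 and 42.9 CPM and *Sri*, which encodes sorcin, between 45.6 and 55.5 CPM. The formyl peptide receptor genes *Fpr1* and *Fpr2* were at or below 1.02 CPM in every library. With the operation as a covariate and all 8 libraries, *Hltf* was the 1 partner with an unadjusted limma p under 0.05 (3.87% of all genes). Its log2 difference was 0.19 (limma adjusted p = 0.999).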

How the data were processed

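RNA-seq was read from 8 bulk corpus callosum libraries. The values were deposited as a normalized signal per gene symbol. Per the labels and the study's methods, the authors aligned poly(A) RNA-seq reads to GRCm38 with HISAT 2.1.0, counted them on genes with featureCounts (subread 2.0.1), and scaled the counts to CPM with edgeR 3.34.1. The gene annotation, strand setting, and handling of reads shared between genes are not given in the sources used here. The values summed to 966202 to 1022161 per library, so they are scaled by an effective library size, and the planned test on log2 values was kept. In all 8 libraries, 100% of the values were whole multiples of 1 read (tolerance 0.02 reads), which gave back the deposited counts of 7896071 to 12952093 reads per library.

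The 8 annexin members, the partner and marker lists, and the tests were chosen with earlier results of these data known. Groups were taken from the labels. An oligodendrocyte marker of the planned list is not reported here and was left out of its sum. Genes averaging 0.1 CPM or more (18123 of 25239 symbols) were tested as log2(CPM + 1) with limma 3.58.1 (R 4.3.3), with Benjamini-Hochberg adjustment over all of them at 0.05. Fold changes on this scale understate those of low genes. The tests compared the labels after BCAS, the labels over all libraries with the operation as a covariate, the change from day 7 to day 14, and its difference between labels. The p-values between labels measure the spread between single libraries of different days. Those of the change over days, and of its difference between labels, measure how far the libraries depart from straight lines. The limma tests also draw on the spread of the other genes. Exact permutation tests (two-sided) covered each member (scipy 1.17.1, Python 3.11.15). Intervals of single levels are 95% Clopper-Pearson intervals and, like the floor of 3 reads, cover counting error only. The genes named are the members, the other annexin symbols, the partners with an unadjusted p under 0.05 or a role named beside a member, *Trpa1*, the markers, and the 5 genes most correlated with *Anxa11* and with *Anxa2*. As alternatives, the pseudocount was set to 0.1, the filter was dropped or raised to 1 CPM, and further runs used equal library medians, leaving out each library, a day block, other sets of libraries or covariates, and edgeR 4.0.16 and DESeq2 1.42.0 on the whole reads. On simulated data, limma recovered 100% of 200 changed genes among 18123 in the comparison of labels after BCAS. In the difference between labels in the change over days, it recovered 76.5% of 200. Recovery of differences as small or as variable as those of the members was not tested. The sums of the other marker lists ranged over the 8 libraries from 75.1 to 91.2 CPM (oligodendrocyte precursor), 132 to 166 CPM (endothelial), 142 to 159 CPM (mural), 12.7 to 22.4 CPM (ependymal), 0.312 to 5.42 CPM (choroid plexus), and 0.557 to 106 CPM (blood).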

Additional observations from a re-analysis of the deposited data

Results flagged for a closer look

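The change from day 7 to day 14 after BCAS differed between the labels for *Anxa2*, by -2.86 on the log2 scale (WT minus TRPA1-KO, limma adjusted p = 0.023). It also differed for 3 partner genes, *S100a6* by -2.85 (limma adjusted p = 0.0061), *Ahnak* by -0.99 (limma adjusted p = 0.022), and *Lgals3* by -3.95 (limma adjusted p = 0.029). Each label and day was 1 library. None of these 4 calls held with no filter on low genes, without day 7 labelled WT, or without day 7 or day 14 labelled TRPA1-KO. Without day 7 labelled WT, the differences were -1.64 for *Anxa2*, -3.54 for *S100a6*, -1.18 for *Ahnak*, and -1.67 for *Lgals3*.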

How the results depend on the processing

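Each label and day was 1 library, and *Anxa1* rested on as few as 5 reads, so day and animal cannot be told apart and small changes of low members could not be resolved. No result reversed its direction where it was called. The causes of the shifts below were not tested.

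Between the labels after BCAS, 2 members had an unadjusted limma p under 0.05, 0 with no filter and 0 to 5 when 1 library was left out, and the median of 0.34 ranged from 0.084 to 0.61. For the partners, where the count was 0, it was 1 with no filter, 2 with edgeR, 2 with DESeq2, and 0 to 3 when 1 library was left out. Over all libraries, 1 member had such a p, and 0 to 4 when 1 library was left out, and the median of 0.21 ranged from 0.014 to 0.38. For the change over the days the count of 1 became 0 with no filter, 3 with edgeR, and 0 to 5 when 1 library was left out, and the median of -0.45 ranged from -0.86 to -0.11. For its difference between labels the count of 5 became 3 with DESeq2 and 2 to 5 when 1 library was left out, and the median of -1.07 ranged from -1.06 to -0.68. The count with an adjusted p (1) was 0 with no filter, 2 with a filter at 1 CPM, 2 with edgeR, and 0 to 1 when 1 library was left out. The median against sham under the WT label (0.47) was 0.014 for day 14 alone and 0.0048 to 0.65 when 1 library was left out.

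Over all genes, adjusted calls for the difference between labels in the change over days were 379 with limma and 465 with a filter at 1 CPM. They were 0 with no filter, 680 with edgeR, 211 with DESeq2, and 0 to 368 when 1 library was left out. For the labels after BCAS there were 3 calls with limma, 2 with a pseudocount of 0.1, 1 with no filter, 2 with edgeR, 17 with DESeq2, and 1 to 29 when 1 library was left out. Over all libraries there were 10, with 5 under no filter and 3 to 16 when 1 library was left out. For the change over the days there were 0, with 6 by edgeR, 5 by DESeq2, and 0 to 33 when 1 library was left out. Unadjusted calls for the change over the days were 893 with limma, 1100 with no filter, 1000 with edgeR, 464 with DESeq2, and 610 to 2040 when 1 library was left out. For its difference between labels they were 2853, with 1264 by DESeq2 and 838 to 3431 when 1 library was left out. They were 761 for the labels after BCAS (952 with no filter, and 325 to 1846 when 1 library was left out) and 701 over all libraries (414 to 1305 when 1 library was left out).

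Same-day libraries of the labels did not deviate together over all genes (correlations of -0.10, 0.0051, and -0.26 over 10744 genes). With 1 library for each label and day, these correlations cannot show whether day had a shared effect on the members. The main tests between labels did not use day as a block. With day as a replicate block, 1 member and 2 partners had an unadjusted p under 0.05 between the labels after BCAS. Over all genes, 632 had such a p, and adjusted calls numbered 1.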
